A study of Mus musculus with 18 samples.

Results

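The average effect of tamoxifen shared by 3 populations of blood-forming cells was measured by setting all 9 tamoxifen libraries against all 9 corn oil libraries, with the population as a block. All 18 RNA-seq libraries of the series are members. The cells were long-term stem cells (LT), short-term stem cells (ST) and multipotent progenitors (MPP), as the field usually reads these names, sorted from marrow of male adult mice of the C57BL/6 strain. The 6 groups were MPPs after 1 week of tamoxifen, LT cells after 2 weeks of tamoxifen, ST cells after 2 weeks of tamoxifen, and the matching groups given corn oil for 1 week (MPP) or 2 weeks (LT and ST), with 3 libraries each. No other allele or agent is named in the labels. Population and duration cannot be told apart for MPPs. The design text calls the libraries of a group biological replicates. The labels do not say how many mice went into a library, the dose of tamoxifen or the gates of the sort, and LT and ST libraries with the same letter may come from the same animals.

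Tamoxifen is a selective estrogen receptor modulator. It binds the estrogen receptors, which are transcription factors switched by their ligand, and acts on them as an antagonist or as a partial agonist depending on the tissue. Estrogen receptor alpha is made in blood stem cells and multipotent progenitors, and tamoxifen is also widely given to mice to switch on Cre fusion proteins. Long-term stem cells are mostly quiescent, short-term stem cells and multipotent progenitors divide more often, and part of the multipotent progenitors are already primed towards the lymphoid lineages. The sum over the populations asks which genes answer tamoxifen in the same direction wherever it was measured.

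The deposited table holds normalised values for 14419 genes. Each library had 2728800 to 5279821 reads in these genes. The mitochondrial ribosomal RNAs took 17.71% to 22.17% of the reads in 16 libraries, 25.45% in LT tamoxifen library A and 24.39% in ST tamoxifen library A. LT tamoxifen library A also held 3964 of the mitochondrial transcript mt-Nd1, while libraries B and C of that group held 1003 and 1099 and the LT oil libraries 889 to 928. Counts of genes in the lists below that move by over 1.5 times and by more than a single gene without this library are given with and without it. Some counts that moved by a single gene are not given in this way. The labelled cell type was checked against Kit, the receptor of stem cell factor that defines this compartment. Its values lay between 532 and 782 in tamoxifen libraries and between 559 and 1150 in oil libraries.

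Genes were tested with limma on log2(value + 1), and "adjusted p" below is limma's p with Benjamini-Hochberg adjustment over all 14419 genes at a threshold of 0.05. A fold change is the log2 difference of tamoxifen minus oil on that scale, given with its standard error (SE). The scale understates the changes of genes with values near 1. In bulk RNA, fewer cells of a type and less RNA per cell cannot be told apart.

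Tamoxifen changed 939 genes on average over the populations, which is 6.51% of the genes tested. Of these, 580 were higher (4.02% of all genes) and 359 lower (2.49%) with tamoxifen, so that 61.8% of the changed genes were higher. After quantile normalisation of the libraries, 435 were higher and 433 lower, so that 50.1% were higher. The median fold change of all genes was -0.006. Most changes were small: the median size among the 939 genes was 0.44 on the log2 scale, and 49 passed a 2-fold change, 30 of them higher and 19 lower. The changed genes had more reads than most. Summed over all libraries, the median was 5272 reads for the higher genes and 1980 for the lower genes, against 1345 for all genes.

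The direction was shared far more often among changed genes than among all genes. It was the same in MPPs, LT cells and ST cells for 916 of the 939 genes (97.6%), against 36.3% of all genes, although a gene with a large average is likely to have 1 sign throughout. In 140 of the 939 genes (14.9%) no tamoxifen library overlapped an oil library in any of the 3 populations. Over all genes this held for 150 (1.04%), 82 of them higher and 68 lower. The 939 genes were chosen with these same libraries, so neither share is independent of the choice.

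Among the changed genes the median size of the effect differed between populations. The 580 higher genes had a median fold change of 0.23 in MPPs, 0.41 in LT cells and 0.63 in ST cells. The medians of the 359 lower genes were -0.34 in MPPs, -0.55 in LT cells and -0.64 in ST cells. ST cells showed the largest of the 3 effects in 602 genes, LT cells in 251 and MPPs in 86. All 3 populations took part in choosing these genes, so their sizes depend on the choice. Of the 939 genes, 541 also passed in ST cells alone. Genes called in MPPs and LT cells without the ST libraries had similar sizes in ST cells. The medians were 0.73 in that fit and 0.78 in ST cells for higher genes, and -0.66 and -0.67 for lower genes. The sizes in that fit depend on the choice of genes, and the ST libraries had no part in it. The matching readings in MPPs and in LT cells, given below, were smaller than in the fits that chose the genes. Tested within 1 population, 8 genes passed in MPPs (0.0555% of all genes), 60 in LT cells (0.416%) and 1386 in ST cells (9.61%). In MPPs 5 were higher (0.0347%) and 3 lower (0.0208%), in LT cells 20 were higher (0.139%) and 40 lower (0.277%), and in ST cells 867 were higher (6.01%) and 519 lower (3.6%). Of the 939 genes, 377 passed in no population tested alone. A single gene, Pdgfrb, passed in all 3. A limma test of whether the effects differ between the populations called 0 genes after adjustment, with 1733 at an unadjusted p under 0.05. The count was 0 with edgeR's quasi-likelihood test and 166 with DESeq2 on the recovered reads. It was 187 with limma when LT tamoxifen library A was left out. Among the 939 changed genes, 239 (25.5%) had an unadjusted p under 0.05 for a difference, against 12.0% of all genes. The common effect is an average, and the effect in each population is given beside it for the genes described in most detail.

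Pdgfrb (ENSMUSG00000024620), the receptor tyrosine kinase for platelet-derived growth factor B, had the smallest p of all genes. In MPPs its values were 17.6, 15.5 and 32.9 with tamoxifen, against 55.3, 64.0 and 46.3 with oil. In LT cells they were 4.02, 6.42 and 2.26 with tamoxifen and 18.7, 19 and 21.6 with oil. ST cells had 10.5, 10.4 and 8.6 with tamoxifen and 41.6, 32.0 and 37.4 with oil. Every tamoxifen library lay below every oil library of its population. The common fold change was -1.74 (SE 0.16, adjusted p = 1.2e-07), made up of -1.35 in MPPs, -2.06 in LT cells and -1.81 in ST cells.

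A set of 12 lower and 12 higher genes was named by size of change, among genes above the median level whose tamoxifen and oil libraries did not overlap in any of the 3 populations. Lack of overlap is part of that choice and is no further finding. Among the lower genes stood 2 neighbours in one signalling chain, Plcg1, the phospholipase C that makes inositol trisphosphate, and Itpr2, a receptor for it that releases calcium. Plcg1 had 68.1, 77.5 and 68.3 in MPPs with tamoxifen, against 108, 112 and 89.1 with oil. LT cells had 41.8, 62.1 and 55.2 with tamoxifen and 92.2, 87.1 and 89.0 with oil, and ST cells had 52.5, 50.1 and 53.3 with tamoxifen and 76.5, 94.6 and 80.5 with oil. Plcg1 fell by 0.65 on the log2 scale (SE 0.09, adjusted p = 5.48e-05). Itpr2 fell by 0.63 (SE 0.08, adjusted p = 4.8e-05), with effects of -0.63 in MPPs, -0.65 in LT cells and -0.62 in ST cells. The 3 effects of Itpr2 were the most alike of any in this set.

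Several of the other lower genes act in chromatin and lymphoid gene control or at the cell surface. Satb1, a chromatin organiser of lymphoid progenitors, had values of 283, 271 and 389 in MPPs with tamoxifen and 448, 464 and 447 with oil. In LT cells Satb1 had 22.2, 32.7 and 17.3 with tamoxifen and 54.1, 44.8 and 79.5 with oil, and in ST cells 48.5, 60.1 and 39.9 with tamoxifen and 86.4, 64.5 and 122 with oil. It fell by 0.89 on average (SE 0.15, adjusted p = 0.00278). Nlrc3, an NLR family member that restrains innate signalling, fell by 1.42 (SE 0.19, adjusted p = 0.000125), by 0.64 in MPPs, 1.63 in LT cells and 1.99 in ST cells. Gpr97, an adhesion G protein-coupled receptor now called Adgrg3, fell by 0.72 (SE 0.11, adjusted p = 0.000268). The kinesin Kif21b fell by 0.70 and the AT-hook gene Ahdc1 by 0.70. The membrane-anchored Mdga1 fell by 0.65, the coiled-coil gene Ccdc48 by 0.62 and the transmembrane gene Thsd1 by 0.58. Their adjusted p-values ran from 0.000164 for Kif21b and Mdga1 to 0.00493 for Thsd1. Esr1 is the remaining lower gene of the set and is described with the estrogen receptor genes below.

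**Figure D1:**
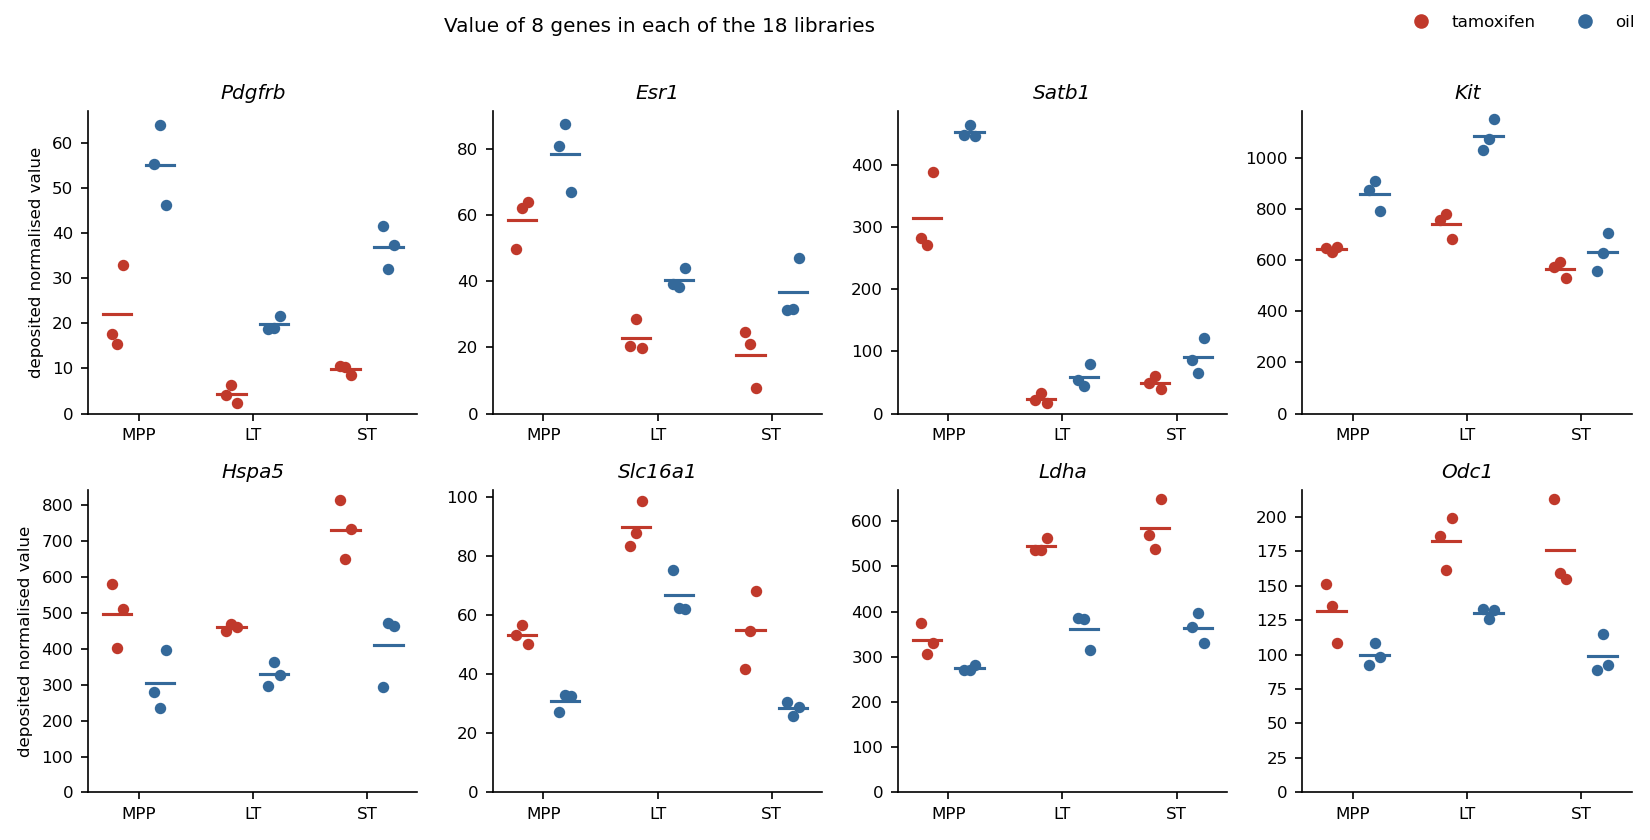
Deposited normalised value of 8 genes in each library (y axis, linear, from 0), by population (x axis), with tamoxifen in red left of oil in blue and a bar at each group's mean of 3 libraries. Pdgfrb, Esr1 and Satb1 lie lower with tamoxifen in all 3 populations, Kit in MPPs and LT cells without overlap, and Hspa5, Slc16a1, Ldha and Odc1 higher in all 3.

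The 12 higher genes of the set include genes of metabolism, protein folding and cell division. Slc16a1, a transporter of lactate and pyruvate, had 53.3, 56.6 and 50.3 in MPPs with tamoxifen and 27.4, 33.1 and 32.6 with oil. LT cells had 83.4, 88.0 and 98.8 with tamoxifen and 75.3, 62.6 and 62.3 with oil, and ST cells had 41.8, 54.7 and 68.4 with tamoxifen and 30.8, 26.0 and 28.9 with oil. Its common fold change was 0.70 (SE 0.10, adjusted p = 0.000142). Ldha, the lactate dehydrogenase subunit that works with it, was higher by 0.52 (SE 0.08, adjusted p = 0.000164), with effects of 0.29 in MPPs, 0.59 in LT cells and 0.68 in ST cells. Odc1, the rate-limiting enzyme of polyamine synthesis, was higher by 0.56 (SE 0.09, adjusted p = 0.000526). Ndufaf4, an assembly factor of respiratory complex I, was higher by 0.70 (SE 0.13, adjusted p = 0.00242).

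Cdca8, which encodes borealin of the chromosomal passenger complex, was higher by 0.56 (SE 0.12, adjusted p = 0.00485). The Y-box gene Csda was higher by 0.60, the lipid raft gene Rftn1 by 0.64 and the secreted glycoprotein gene Lgals3bp by 0.53. The largest fold changes among the higher genes were those of Ces2g, a carboxylesterase, and Atp1b2, a beta subunit of the sodium pump. Ces2g was higher by 1.34 (SE 0.19, adjusted p = 0.000511) and Atp1b2 by 1.27 (SE 0.21, adjusted p = 0.0016). Both had few reads in MPPs: Atp1b2 had values of 5.58, 13.5 and 5.56 with tamoxifen and 0.946, 1.0 and 3.56 with oil. In LT cells, where both were most abundant, Ces2g had 509, 204 and 206 with tamoxifen and 140, 172 and 112 with oil.

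**Figure D2:**
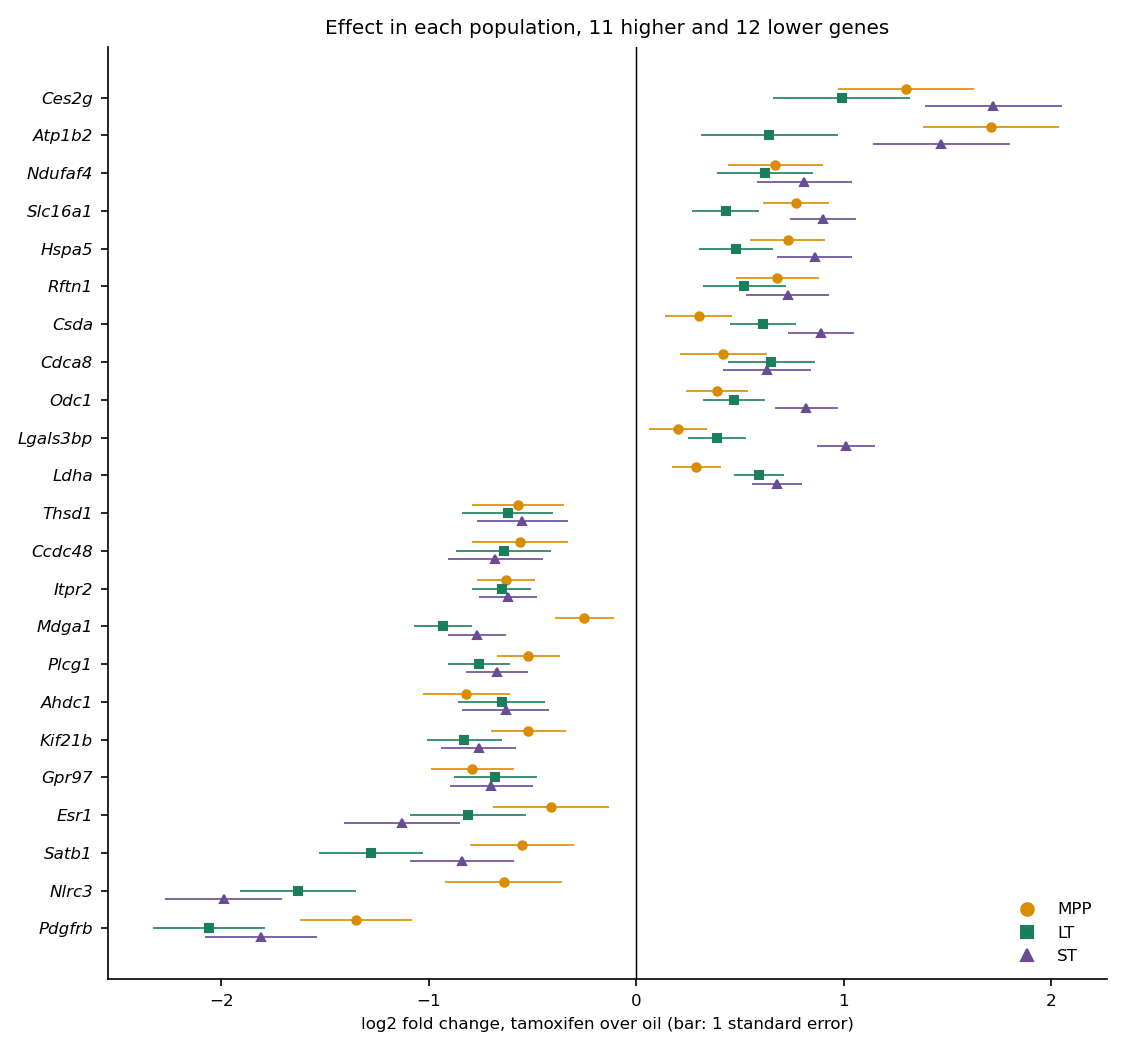
Log2 fold change of tamoxifen over oil (x axis, bars 1 SE from the limma fit with 1 mean per group of 3 libraries) for 11 of the 12 higher genes and the 12 lower genes (y axis), drawn for MPPs, LT cells and ST cells. Itpr2 shows nearly 1 effect in all 3 populations (-0.63, -0.65 and -0.62), and Lgals3bp runs from 0.20 in MPPs to 1.01 in ST cells.

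Of these 24 genes, 12 kept an adjusted p under 0.05 in each of the 32 alternative fits. They were Pdgfrb, Nlrc3, Gpr97, Kif21b, Ahdc1, Plcg1, Mdga1, Itpr2, Slc16a1, Hspa5, Odc1 and Ldha. Esr1 lost its call without the LT libraries and the other 11 without the ST libraries, where Ces2g had an adjusted p of 0.0612 and Satb1 0.0755. The fold changes without the ST libraries were 1.14 for Ces2g and -0.91 for Satb1, against 1.34 and -0.89 with all libraries.

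Further changed genes outside this set were named after their values were seen. Myl10, a regulatory light chain of myosin, had 6.6, 12.1 and 4.71 in MPPs with tamoxifen and 1.49, 1.0 and 4.36 with oil. LT cells had 6.69, 8.7 and 8.57 with tamoxifen and 1.56, 1.21 and 2.37 with oil, and ST cells had 20.9, 8.71 and 8.86 with tamoxifen and 0.823, 0.828 and 2.78 with oil. Its fold change was 1.89 (SE 0.24, adjusted p = 4.8e-05). Thbs1, the matricellular protein thrombospondin, was higher by 2.77 (SE 0.41, adjusted p = 0.0016), and 1 MPP oil library with 25.7 stood close to the MPP tamoxifen values of 27.8 to 40.1. Mmp2, a gelatinase that cleaves matrix, fell by 1.26 (SE 0.20, adjusted p = 0.000307), by 0.38 in MPPs and by 1.71 in both stem cell populations. Gdf3, a ligand of the TGF-beta superfamily, was higher by 1.22 (SE 0.19, adjusted p = 0.000423), and Sel1l3 by 1.58 (SE 0.24, adjusted p = 0.000272). Slc43a2, a transporter of neutral amino acids, fell by 0.68 (SE 0.10, adjusted p = 0.000139).

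Among the estrogen receptor genes Esr1 was lower. Esr1 (ENSMUSG00000019768) encodes estrogen receptor alpha. In MPPs its values were 49.8, 62.3 and 64.0 with tamoxifen, against 80.9, 87.5 and 66.9 with oil. LT cells had 20.4, 28.7 and 19.7 with tamoxifen and 39.1, 38.4 and 43.9 with oil, and ST cells had 24.6, 21.0 and 7.58 with tamoxifen and 31.4, 31.6 and 47.1 with oil. The groups did not overlap in any population, and Esr1 fell by 0.79 (SE 0.17, adjusted p = 0.00806). Without the LT libraries the adjusted p was 0.10. Gpr30, the membrane estrogen receptor now called Gper1, had values under 3 in all libraries and a fold change of 0.09 (SE 0.26, adjusted p = 0.886). Esr2 was not analysed here.

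Greb1, a cofactor of estrogen receptor alpha and one of its classical target genes, was nearly silent with oil. MPPs had 14, 27 and 23 reads with tamoxifen and 0, 2 and 2 reads with oil. LT cells had 4, 6 and 2 reads with tamoxifen and 0 reads in all 3 oil libraries, and ST cells had 14, 8 and 18 reads with tamoxifen and 0 reads in all 3 oil libraries. Set against a floor of 3 reads over a group of oil libraries, Greb1 was 4.39-fold higher in LT cells and 10.4-fold higher in ST cells. The floor allows for counting error in the oil reads and not in the tamoxifen reads, so these folds are no strict bounds. The limma fold change of 1.67 (SE 0.22, adjusted p = 4.8e-05) depends on the 1 added to each value and is no bound. Pgr, the progesterone receptor gene, another classical target, had a fold change of 0.64 (SE 0.24, adjusted p = 0.104).

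In the list of 16 measured estrogen receptor genes and targets, 3 were higher and 2 lower, with a median of 0.22. Leaving out MPP oil library 3 gave 6 higher. Besides Greb1 and Esr1 these were Myc, a growth-promoting transcription factor, which was higher by 0.46 (adjusted p = 0.0154), and 2 genes named after their values were seen: Xbp1, a transcription factor of the unfolded protein response, higher by 0.31, and Nrip1, a corepressor of nuclear receptors, lower by 0.27. Promoters were searched for the palindromic estrogen response element, GGTCA and TGACC 3 bases apart, on both strands. The promoter table (RefSeq, build GRCm38.p6, 250 bases before to 50 bases after each start) held 9302 of the genes by symbol, among them 440 of the 580 higher and 237 of the 359 lower genes. This window held the element in 1 of the 9302 promoters (0.0108%) and in 0 promoters of the changed genes.

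Groups of genes were then described by 45 lists of pathways and cell types, each by its counts and its median beside those of all genes (580 higher and 359 lower of 14419, median -0.006). The mitosis list had the most genes called. Of its 40 genes, 23 were higher and 0 lower, all 40 had a fold change above 0, and 37 were above 0 in each of the 3 populations. The median was 0.44, with 0.19 in MPPs, 0.51 in LT cells and 0.60 in ST cells. Ccna2, the cyclin of S phase and mitotic entry, had 165, 178 and 246 in MPPs with tamoxifen and 127, 193 and 176 with oil. In LT cells Ccna2 had 170, 127 and 113 with tamoxifen and 96.4, 93.5 and 94.0 with oil, and in ST cells 220, 229 and 242 with tamoxifen and 123, 132 and 102 with oil. The groups of Ccna2 overlapped in MPPs and not in LT or ST cells. Its fold change was 0.57 (SE 0.11, adjusted p = 0.00323). Anln, the actin-binding anillin of cytokinesis, was higher by 0.49 (adjusted p = 0.00581), as was Cdca8.

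DNA replication moved less. Of 38 genes, 9 were higher and 0 lower, with a median of 0.21. Rrm1, the large subunit of ribonucleotide reductase, was higher by 0.43 (adjusted p = 0.00282), the origin recognition subunit Orc6 by 0.56 (adjusted p = 0.00298) and the replicative helicase subunit Mcm6 by 0.39 (adjusted p = 0.00514). In nucleotide synthesis 4 of 21 genes were higher and 0 lower, with Paics of the purine pathway at 0.47 and Cad, which starts pyrimidine synthesis, at 0.45. The nucleotide list had 9 genes past the threshold without LT tamoxifen library A, 2 without LT oil library C or ST tamoxifen library C, and 1 without ST tamoxifen library A, ST oil library A or ST oil library C. Cad had effects of 0.13 in MPPs, 0.16 in LT cells and 1.07 in ST cells. Among 27 CDK inhibitors and quiescence genes 0 were higher and 2 lower: Ccng2, an atypical cyclin linked to cell cycle arrest, which fell by 0.56 (adjusted p = 0.00353), and the repressor Bcl6, which fell by 0.50 (adjusted p = 0.0472). Bcl6 lost its call in 21 of the 32 alternatives.

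These counts rest on the ST libraries in part. Without the ST libraries 45 genes passed in all, 21 higher and 24 lower. The mitosis list then had 0 genes past the threshold and a median of 0.36, and the DNA replication list 1 gene and 0.19. Without the LT libraries 7 mitosis genes passed. With 1 library left out 13 to 29 mitosis genes passed, 29 without LT tamoxifen library A, 14 without LT oil library C or ST tamoxifen library B and 13 without MPP oil library 1, ST oil library C or ST tamoxifen library C. For DNA replication the count was 5 to 12, with 5 without LT oil library C, ST oil library C or ST tamoxifen library B.

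Many genes that make and fold proteins were higher. In the list of the cytosolic chaperonin TRiC, Hsp70 and Hsp90, 14 of 23 genes were higher and 0 lower, all 23 had a fold change above 0, and the median was 0.29. Hspd1, the mitochondrial chaperonin placed in the same list, had 489, 425 and 412 in MPPs with tamoxifen and 355, 333 and 403 with oil. LT cells had 692, 658 and 715 with tamoxifen and 558, 566 and 452 with oil, and ST cells had 618, 667 and 712 with tamoxifen and 335, 394 and 400 with oil. Hspd1 was higher by 0.50 (SE 0.08, adjusted p = 0.000787). The inducible Hsp90 gene Hsp90aa1 was higher by 0.50 (adjusted p = 0.00205) and the TRiC subunit gene Tcp1 by 0.40 (adjusted p = 0.00323). After quantile normalisation 8 of the 23 passed, with a median of 0.18, and without the ST libraries 0 passed, with a median of 0.19. Without ST tamoxifen library C 8 passed, and without LT tamoxifen library A 18.

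Ribosome biogenesis had 15 of 35 genes higher and 0 lower, with a median of 0.27 and 34 genes above 0. The median was 0.15 in MPPs, 0.24 in LT cells and 0.455 in ST cells. After quantile normalisation 10 of the 35 passed, and without the ST libraries 0 passed, with a median of 0.215. The count was 10 without LT oil library C and 20 without LT tamoxifen library A. The nucleolar GTPase Gnl3 was higher by 0.46 (adjusted p = 0.00137), the snoRNP core gene Nop58 by 0.41 (adjusted p = 0.00364) and nucleolin, Ncl, by 0.41 (adjusted p = 0.00813). Of 38 cytosolic ribosomal protein genes 0 were higher and 0 lower, and their median was 0.05, with 0.23 in MPPs, 0.06 in LT cells and -0.22 in ST cells. After quantile normalisation that median was -0.01. Without LT tamoxifen library A it was 0.14, and 4 of the 38 were higher. Of 20 cytosolic aminoacyl-tRNA synthetases, which load amino acids onto tRNA, 7 were higher and 0 lower with a median of 0.26. Iars had a fold change of 0.44 (adjusted p = 0.00396), Rars 0.38 (adjusted p = 0.00635) and Eprs 0.37 (adjusted p = 0.0115). The synthetase count was 11 without LT tamoxifen library A, 4 without ST oil library A or ST tamoxifen library C, 4 after quantile normalisation and 0 without the ST libraries. In the proteasome list 5 of 33 genes were higher and 0 lower, with a median of 0.17, led by the regulatory subunit gene Psmd7 at 0.37 (adjusted p = 0.0039). The proteasome count was 2 after quantile normalisation, 10 without LT tamoxifen library A and 0 without the ST libraries, and it ran from 2 to 10 with 1 library left out. Rptor, the scaffold of the mTOR complex that promotes translation, and Eef2k, the kinase that brakes elongation, were named after their values were seen. Rptor fell by 0.38 (adjusted p = 0.00615) and Eef2k by 0.37 (adjusted p = 0.00745), without overlap in any population.

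Some chaperones of the endoplasmic reticulum were higher too. The unfolded protein response raises them when secretory proteins misfold. Of 24 genes in this list 9 were higher and 0 lower, with a median of 0.31. Hspa5 encodes BiP, the chief chaperone there. In MPPs its values were 581, 404 and 510 with tamoxifen and 281, 236 and 397 with oil. LT cells had 451, 469 and 460 with tamoxifen and 298, 365 and 326 with oil, and ST cells had 814, 650 and 734 with tamoxifen and 295, 472 and 465 with oil. The groups did not overlap, and Hspa5 was higher by 0.69 (SE 0.10, adjusted p = 0.000272). The lectin chaperone Canx was higher by 0.42 (adjusted p = 0.00529) and Hsp90b1, the Hsp90 of this compartment, by 0.45 (adjusted p = 0.0057). Hsp90b1 had effects of 0.26 in MPPs, 0.24 in LT cells and 0.86 in ST cells. Without the ST libraries 1 of the 24 passed and the median was 0.20, and without LT tamoxifen library A 14 passed.

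The endoplasmic reticulum stress element is the site through which the unfolded protein response raises chaperone genes. It was searched as CCAAT and CCACG 9 bases apart on both strands, and it was chosen after the gene values were seen. The promoter window held it in 17 of 9302 genes (0.183%), in 5 of the 440 higher genes (1.14%) and in 0 of the 237 lower genes. Within the list of endoplasmic reticulum chaperones it was present in 8 of 21 promoters (38.1%). Of the 3 named genes that hold it, Canx, Hspa5 and Hsp90b1, the promoters of Hspa5 and Hsp90b1 are shown as examples, as the 250 bases before the start site, with matches in capitals. Hspa5 lies at chr2:34771840-34772089 on the plus strand and Hsp90b1 at chr10:86705445-86705694 on the minus strand (RefSeq, GRCm38.p6).
Hspa5: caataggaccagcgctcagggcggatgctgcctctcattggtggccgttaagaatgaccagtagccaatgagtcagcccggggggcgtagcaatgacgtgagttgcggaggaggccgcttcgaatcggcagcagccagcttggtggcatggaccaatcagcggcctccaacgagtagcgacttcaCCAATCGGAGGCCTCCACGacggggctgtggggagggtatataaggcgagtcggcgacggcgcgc
Hsp90b1: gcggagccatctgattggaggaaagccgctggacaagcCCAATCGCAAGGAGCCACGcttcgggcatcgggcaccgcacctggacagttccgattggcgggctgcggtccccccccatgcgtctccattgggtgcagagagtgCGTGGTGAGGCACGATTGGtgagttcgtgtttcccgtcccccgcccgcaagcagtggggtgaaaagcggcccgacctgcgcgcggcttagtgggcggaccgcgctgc

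The integrated stress response raises genes of amino acid supply when amino acids are short or the endoplasmic reticulum is stressed. In its list 6 of 24 genes were higher and 0 lower, with a median of 0.20. Without the ST libraries 0 of the 24 passed, with a median of 0.19. Asns, asparagine synthetase, had 15.3, 16.9 and 14.1 in MPPs with tamoxifen and 7.16, 6.44 and 5.94 with oil. ST cells had 20.6, 22.1 and 23.0 with tamoxifen and 8.72, 8.78 and 10.7 with oil, and in LT cells the groups overlapped, at 75.4, 49.2 and 51.9 with tamoxifen and 49.1, 51.8 and 42.8 with oil. Asns was higher by 0.85 (SE 0.14, adjusted p = 0.000511), with 1.13 in MPPs, 0.27 in LT cells and 1.14 in ST cells. Slc7a5, a transporter of large neutral amino acids, was higher by 0.65 (adjusted p = 0.000926) and Psat1 of serine synthesis by 0.44 (adjusted p = 0.00354). The CARE core, TGATG followed by any 1 base and AA, was present in 7 of 22 promoters of the list (31.8%), against 2.82% of all 9302 promoters, 25 of the higher genes (5.68%) and 12 of the lower genes (5.06%). The Asns promoter lies at chr6:7693210-7693459 on the minus strand (RefSeq, GRCm38.p6) and is shown as the 250 bases before the start, with the match in capitals.
Asns: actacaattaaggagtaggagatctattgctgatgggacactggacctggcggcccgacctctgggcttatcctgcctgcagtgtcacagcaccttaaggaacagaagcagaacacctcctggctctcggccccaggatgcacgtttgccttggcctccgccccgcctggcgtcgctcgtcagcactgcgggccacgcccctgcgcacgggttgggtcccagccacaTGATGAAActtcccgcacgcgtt

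Energy metabolism lists had calls in 1 direction. Citric acid cycle genes were higher in 4 of 17 cases (median 0.21), glycolysis genes in 4 of 21 (median 0.15), nuclear genes of oxidative phosphorylation in 5 of 56 (median 0.14) and antioxidant genes in 3 of 28 (median 0.19). In each of these lists 0 were lower. The populations differed: the glycolysis median was 0.22 in MPPs, -0.13 in LT cells and 0.29 in ST cells, with 6 of 21 genes above 0 in LT cells. In the same order the medians were 0.07, 0.06 and 0.33 for the citric acid cycle. They were 0.25, 0.15 and 0.07 for oxidative phosphorylation, and 0.24, 0.13 and 0.35 for antioxidant genes. These counts were unstable. Without LT tamoxifen library A oxidative phosphorylation had 11 genes higher, glycolysis 9 and antioxidant genes 7. After quantile normalisation oxidative phosphorylation had 1 and the citric acid cycle 2. The citric acid cycle also had 2 without LT oil library B or ST oil library C, and oxidative phosphorylation ran from 1 to 11 with 1 library left out. Without the ST libraries glycolysis had 2 and the other 3 lists 0. Citrate synthase, Cs, was higher by 0.40 (adjusted p = 0.0134), but its effect was 0.20 in MPPs, 0.07 in LT cells and 0.93 in ST cells. The glycolytic kinase Pgk1 was higher by 0.31 (adjusted p = 0.0147) beside Slc16a1 and Ldha of the same list. The catalytic subunit gene Atp5b of ATP synthase was higher by 0.35 (adjusted p = 0.011). G6pdx, which makes NADPH, was higher by 0.47 (adjusted p = 0.00352). Of 13 mitochondrially encoded genes 0 passed, with mt-Nd1 at 0.42 (adjusted p = 0.293). Their median was 0.26 with all libraries and 0.09 without LT tamoxifen library A. By population it was -0.13 in MPPs, 0.67 in LT cells and 0.35 in ST cells.

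Fatty acid synthesis and desaturation had 6 of 25 genes higher and 0 lower (median 0.22). The count was 2 without the LT libraries, and without the ST libraries it was 0, with a median of 0.08. Acaca, which commits carbon to fatty acids, was higher by 0.38 (adjusted p = 0.00794), Fads3 by 0.66 (adjusted p = 0.0159) and the desaturase Fads2 by 0.55 (adjusted p = 0.0168). Fads2 had effects of 0.09 in MPPs, 0.25 in LT cells and 1.32 in ST cells. Tamoxifen is known to bind enzymes of sterol synthesis. Of 24 cholesterol synthesis genes 0 were higher and 1 lower, the sterol methyl oxidase gene Sc4mol, now called Msmo1, which fell by 0.47 (adjusted p = 0.0299). The E-box CACGTG, bound by MYC among others, was present in 15.7% of promoters of higher genes, 8.02% of those of lower genes and 11.6% of all promoters searched.

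Part of the interferon list rose with tamoxifen. Interferon-stimulated genes restrain viruses, and interferon is also known to bring quiescent stem cells into cycle. Of 36 genes 13 were higher and 0 lower, 34 were above 0, and the median was 0.41, with 0.12 in MPPs, 0.44 in LT cells and 0.62 in ST cells. Ifit1, which binds viral RNA, had 35.4, 34.4 and 17.8 in MPPs with tamoxifen and 24.7, 12.5 and 21.8 with oil. LT cells had 68.0, 39.5 and 31.4 with tamoxifen and 23.4, 17.4 and 23.5 with oil, and ST cells had 32.8, 26.1 and 22.0 with tamoxifen and 12.3, 12.4 and 19.8 with oil. The groups overlapped in MPPs only. Ifit1 was higher by 0.80 (SE 0.17, adjusted p = 0.00538), the membrane protein gene Ifitm3 by 0.54 (adjusted p = 0.00323) and the oligoadenylate synthetase gene Oas3 by 0.65 (adjusted p = 0.00352). Without the LT libraries 5 of the 36 passed, and without the ST libraries 0 passed with a median of 0.32. Leaving out MPP tamoxifen library 3 gave 23.

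The core of the interferon-stimulated response element was searched as GAAA and GAAA 2 bases apart on both strands, also chosen after the gene values were seen. It was present in 17 of 26 promoters of the interferon list (65.4%), in 33 of the 440 higher genes (7.5%), in 9 of the 237 lower genes (3.8%) and in 3.78% of all promoters searched. The Ifit1 promoter (chr19:34640639-34640888, plus strand, RefSeq, GRCm38.p6) shows 2 matches within the 250 bases before the start, in capitals and read here on the opposite strand.
Ifit1: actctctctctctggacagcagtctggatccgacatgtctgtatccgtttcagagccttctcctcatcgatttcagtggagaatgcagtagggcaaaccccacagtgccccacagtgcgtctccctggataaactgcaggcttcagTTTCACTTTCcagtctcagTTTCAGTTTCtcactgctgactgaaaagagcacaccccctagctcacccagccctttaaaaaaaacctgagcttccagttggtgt

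**Figure D3:**
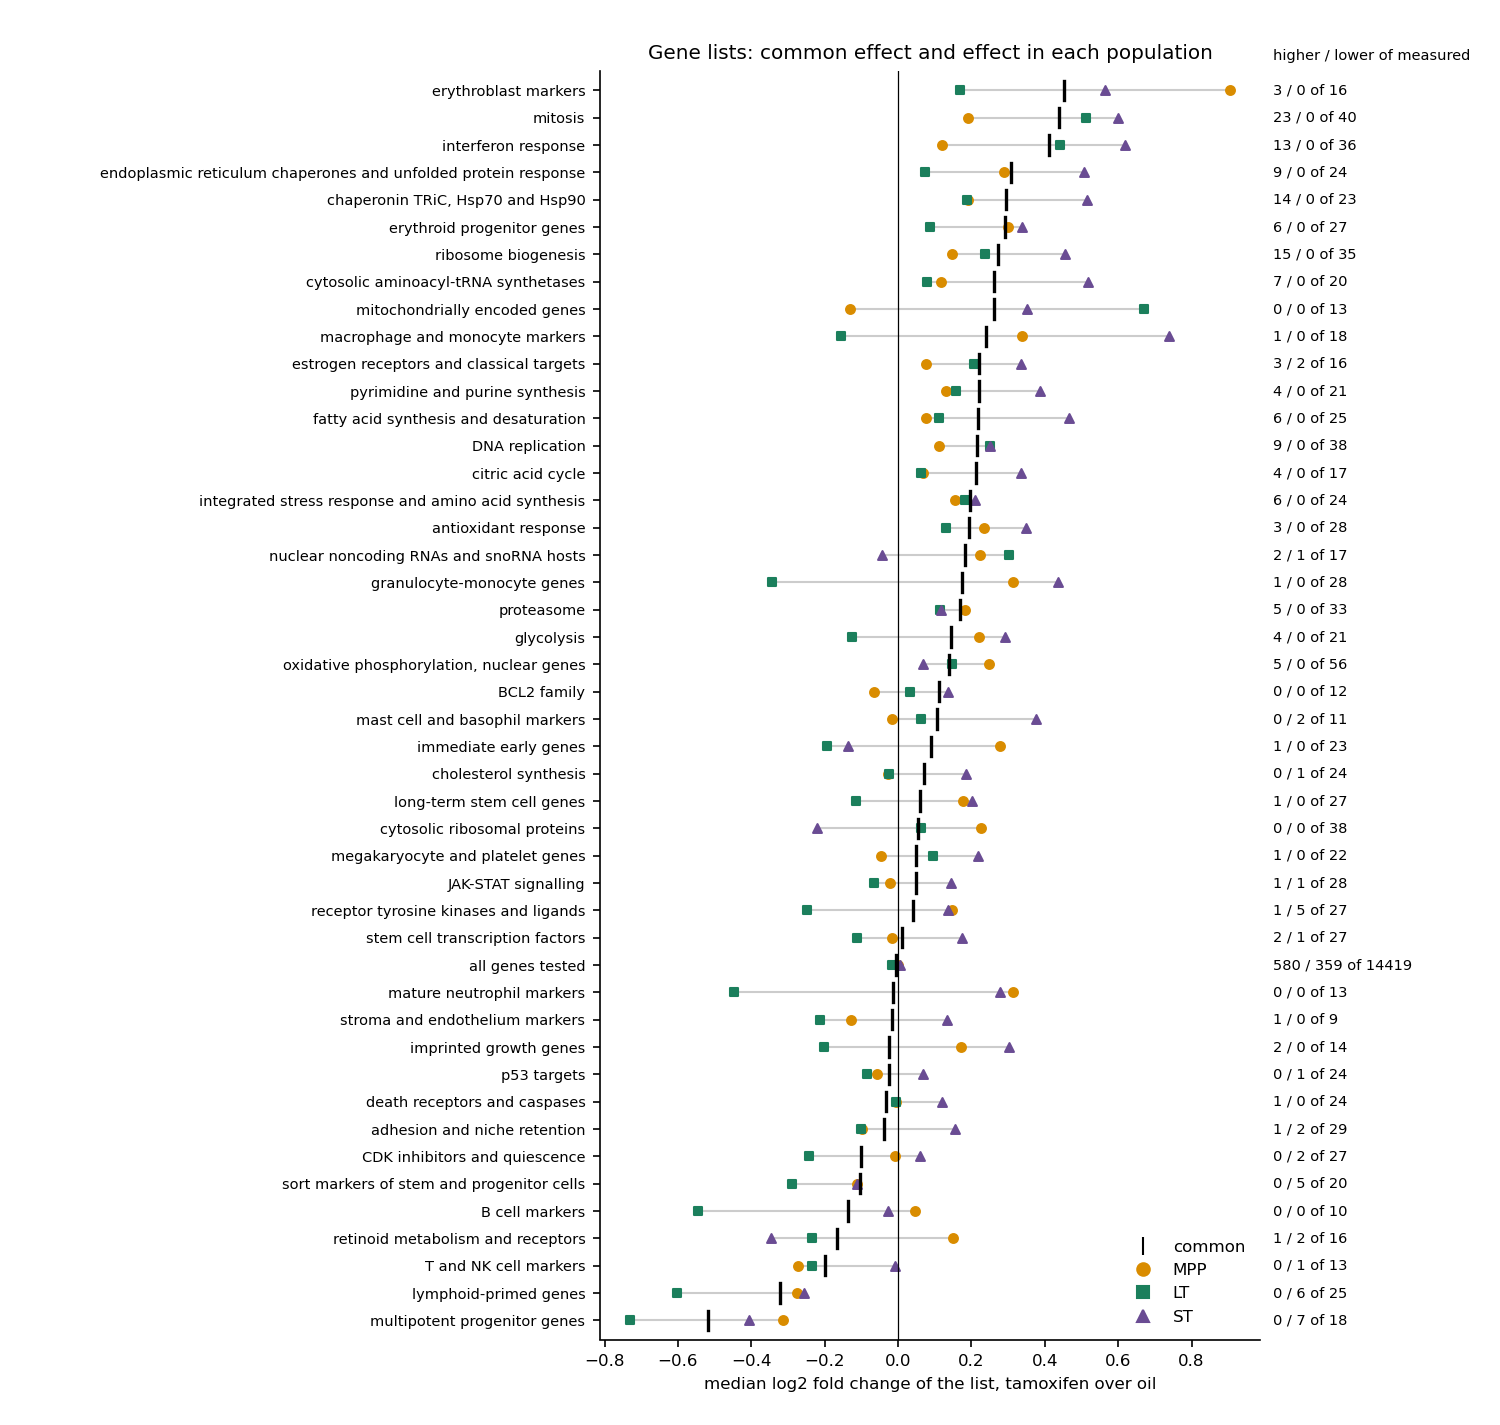
Median log2 fold change of tamoxifen over oil (x axis) in each of the 45 lists and over all genes tested (y axis), as a black bar for the common effect and as symbols for MPPs, LT cells and ST cells, with the numbers higher and lower of those measured at the right. The mitosis list (23 of 40 higher) and the interferon list (13 of 36) lie far to the right, and the multipotent progenitor list (7 of 18 lower) farthest to the left.

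Some genes of multipotent and lymphoid-primed progenitors were lower. Of 18 genes that mark multipotent progenitors 0 were higher and 7 lower, with a median of -0.52, and of 25 lymphoid-primed genes 0 were higher and 6 lower, with a median of -0.32. Several genes stand in both lists. The T lineage factor Tcf7 had 18.9, 8.42 and 5.86 in LT cells with tamoxifen, against 26.2, 38.4 and 26.3 with oil. ST cells had 1.73, 1.57 and 2.7 with tamoxifen and 8.39, 8.45 and 9.23 with oil, and MPPs had values under 4 in both groups. Tcf7 fell by 1.34 on average (SE 0.22, adjusted p = 0.000591). Il7r, the interleukin receptor that lymphoid progenitors depend on, fell by 1.11 (SE 0.28, adjusted p = 0.0166), and Cd33, a sialic acid-binding receptor, by 0.75 (adjusted p = 0.0135). Flt3, the cytokine receptor that separates these progenitors from stem cells, is named after its values were seen and fell by 0.85 (adjusted p = 0.0389). Without the ST libraries 0 genes of either list passed, with medians of -0.59 and -0.43. Without the LT libraries the multipotent progenitor list had 2 genes higher and 3 lower, and the lymphoid-primed list 1 higher and 2 lower.

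Some transcripts of surface proteins used to sort these cells were lower. Of 20 such genes 0 were higher, 15 did not pass and 5 were lower: Kit, Cd48, Il7r, and Flt3 and Cd244, the last 2 named after their values were seen. Kit had 646, 633 and 653 in MPPs with tamoxifen and 873, 910 and 794 with oil. LT cells had 759, 782 and 682 with tamoxifen and 1032, 1075 and 1152 with oil, and ST cells overlapped, at 573, 592 and 532 with tamoxifen and 559, 630 and 707 with oil. Kit fell by 0.37 (SE 0.07, adjusted p = 0.00337), by 0.41 in MPPs, 0.55 in LT cells and 0.15 in ST cells, and its adjusted p was 0.0671 without the LT libraries. Without those libraries 2 of the 20 sort genes were higher and 2 lower. Without LT tamoxifen library C, or without any of ST oil library A and the 3 ST tamoxifen libraries, 3 were lower. Cd48, a marker that rises as stem cells become progenitors, fell by 0.62 (SE 0.13, adjusted p = 0.0044), by 0.59 in MPPs, 0.71 in LT cells and 0.57 in ST cells. Cd34, Procr and Slamf1 did not pass, with adjusted p-values of 0.0768, 0.106 and 0.159. The summed values of the 20 genes were 3730 to 3820 in MPP tamoxifen, against 3940 to 4210 in MPP oil, and 2750 to 2990 in LT tamoxifen, against 3270 to 3660 in LT oil. In ST cells the ranges overlapped, at 2600 to 2980 with tamoxifen and 2420 to 3070 with oil. Whether the sort gates took other cells after tamoxifen was not tested.

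Stem cell genes changed little as a group. Of 27 long-term stem cell genes 1 was higher and 0 lower, with a median of 0.06. That gene was Mecom, a transcription factor that stem cells need, higher by 0.54 (SE 0.10, adjusted p = 0.00238). Without LT tamoxifen library A 3 of the 27 were higher. In the list of stem cell transcription factors 2 of 27 were higher, Mecom and the myeloid factor Cebpa (0.79, adjusted p = 0.0418), and 1 lower, Ikzf2 (-0.27, adjusted p = 0.0305). Cebpa lost its call in 20 of the 32 alternatives and Ikzf2 in 11. Cebpa was also the 1 higher gene of 28 in the granulocyte-monocyte list. That list had 4 genes higher without LT tamoxifen library A.

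Receptors and signalling genes were mixed. Of 27 receptor tyrosine kinases and ligands 1 was higher and 5 lower, with 2 to 5 lower when 1 library was left out. The higher one was Vegfa, the vascular growth factor. Its values were 27.5, 42.8 and 25.2 in MPPs with tamoxifen and 13.1, 14.2 and 21.3 with oil, 20.4, 20.7 and 21.2 in LT cells with tamoxifen and 12.8, 13.3 and 11.3 with oil, and 15.5, 19.6 and 25.3 in ST cells with tamoxifen and 9.38, 13.1 and 10.7 with oil. The groups did not overlap, and Vegfa was higher by 0.81 (SE 0.14, adjusted p = 0.00091). The lower ones were Pdgfrb, Kit and 3 named after their values were seen, Flt3, Ephb6 (-0.63) and the insulin receptor gene Insr (-0.23). Smad3, which carries TGF-beta signals and was also chosen after its values were seen, fell by 0.35 (adjusted p = 0.0145). In the JAK-STAT list 1 of 28 was higher, the feedback inhibitor Socs2 (0.72, adjusted p = 0.0178), and 1 lower, the lymphoid kinase Jak3 (-0.32, adjusted p = 0.0498), whose call was lost in 21 of the 32 alternatives. Socs2 had effects of -0.10 in MPPs, 1.03 in LT cells and 1.25 in ST cells. Without LT tamoxifen library A the JAK-STAT list had 3 genes higher and 0 lower.

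Of 16 measured retinoid genes 1 was higher and 2 lower. Dhrs3, which reduces retinaldehyde back to retinol, had 28.7, 30.1 and 46.9 in MPPs with tamoxifen and 58.5, 60.6 and 41.1 with oil. LT cells had 2.53, 2.14 and 1.65 with tamoxifen and 18.2, 7.94 and 20.2 with oil, and ST cells had 7.57, 5.57 and 7.06 with tamoxifen and 16.6, 20.7 and 24.8 with oil. The groups were apart in LT and ST cells and overlapped in MPPs. Dhrs3 fell by 1.47 (SE 0.21, adjusted p = 0.000272) and Rdh5, a retinol dehydrogenase, by 0.76 (adjusted p = 0.0265). Aldh1a1, which oxidises retinaldehyde to retinoic acid, was higher by 1.24 (SE 0.23, adjusted p = 0.00352), with 1.88 in MPPs, 0.19 in LT cells and 1.66 in ST cells. The other 13 did not pass, and without the ST libraries 0 of the 16 passed.

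Other lists had few calls, and lists with 0, 1 or 2 genes past the threshold in a direction had 0 to 4 there with 1 library left out. Of 12 BCL2 family genes 0 passed, with Bcl2 at 0.32 (adjusted p = 0.0845), and of 24 p53 targets 1 was lower, the stress protein gene Trp53inp1 (-0.45, adjusted p = 0.0206). Among 29 adhesion genes the integrin gene Itgam was higher by 0.52 (adjusted p = 0.0225), while Itga9 fell by 0.59 (adjusted p = 0.0154) and Itga2 by 0.69 (adjusted p = 0.0248). Of 23 immediate early genes Myc alone passed, and 3 passed without LT tamoxifen library A. Of 14 imprinted growth genes Gatm (0.58, adjusted p = 0.00477) and the growth factor adaptor gene Grb10 (0.66, adjusted p = 0.0121) were higher. Grb10 had effects of 0.82 in MPPs, 0.10 in LT cells and 1.07 in ST cells. Of 22 megakaryocyte and platelet genes the adhesion receptor gene Selp was higher by 0.70 (adjusted p = 0.0425), with effects of 0.05 in MPPs, 1.5 in LT cells and 0.55 in ST cells and a call that was lost in 21 of the 32 alternatives. Among 17 nuclear noncoding RNAs and snoRNA hosts Malat1, a nuclear RNA, fell by 0.53 (adjusted p = 0.00278), by 0.22 in MPPs, 0.38 in LT cells and 1.00 in ST cells, and the snoRNA hosts Snhg4 and Gas5 were higher by 0.37 and 0.30. Snhg4 lost its call in 17 of the 32 alternatives and Gas5 in 18.

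Some erythroid genes were higher. Of 27 erythroid progenitor genes 6 were higher and 0 lower, with a median of 0.29, and of 16 erythroblast markers 3 were higher and 0 lower, with a median of 0.45. Neither list had a gene past the threshold without the ST libraries, where the medians were 0.21 and 0.61. Ermap, an erythroid membrane protein gene, had 11.9, 43.2 and 23.2 in MPPs with tamoxifen and 3.65, 6.16 and 4.62 with oil. ST cells had 80.4, 52.7 and 58.9 with tamoxifen and 18.6, 15.1 and 18.6 with oil, and LT cells overlapped, at 503, 300 and 288 with tamoxifen and 263, 322 and 232 with oil. Ermap was higher by 1.42 (SE 0.28, adjusted p = 0.00869). Ank1, an ankyrin that anchors the erythrocyte skeleton, was higher by 1.25 (SE 0.24, adjusted p = 0.00498), with 1.95 in MPPs, 0.43 in LT cells and 1.37 in ST cells. Tmem14c, a porphyrin transporter gene, was higher by 0.61 (adjusted p = 0.00458). The carbonic anhydrase gene Car1 was higher by 1.25 (SE 0.31, adjusted p = 0.0264), with 2.27 in MPPs, 0.17 in LT cells and 1.31 in ST cells. The erythroblast markers summed to 289 to 807 in MPP tamoxifen, against 209 to 273 in MPP oil, 1300 to 1570 in LT tamoxifen, against 1120 to 1420 in LT oil, and 502 to 686 in ST tamoxifen, against 332 to 369 in ST oil. MPP tamoxifen library 2 was the highest of the MPP libraries, and without it the median of the erythroblast list was 0.15, with 4 genes passing. With 1 library left out the erythroblast list had 1 to 5 genes higher, 5 without MPP tamoxifen library 1 and 1 without ST tamoxifen library A or C, and the erythroid progenitor list 10 without MPP tamoxifen library 1. The globin genes Hba-a1 and Hbb-b1, which define erythroblasts, did not pass (0.16 and 0.20, adjusted p = 0.906 and 0.891). Their medians were 3.06 and 6.71 with tamoxifen and 4.14 and 8.72 with oil. Their highest values were 67.7 and 153 with tamoxifen and 6.55 and 17.7 with oil.

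Markers of other cells that a sort could hold were measured beside these lists. Of 13 mature neutrophil markers 0 passed, and of 10 B cell markers 0 passed. B cell markers nevertheless summed to 719 to 1010 in MPP tamoxifen, against 456 to 550 in MPP oil, 116 to 254 in LT tamoxifen, against 197 to 518 in LT oil, and 418 to 705 in ST tamoxifen, against 144 to 261 in ST oil. The immunoglobulin gene Igkc, in that list, had 70.8, 326 and 158 in MPPs with tamoxifen and 39.6, 23.6 and 0.66 with oil. Cd79a, a defining B cell gene, stayed under 6 in all libraries. Of 18 macrophage and monocyte markers the iron exporter gene Slc40a1 was higher (0.51, adjusted p = 0.0329), and of 9 stroma and endothelium markers the collagen gene Col1a2 (0.98, adjusted p = 0.0086), at values under 6. The call of Slc40a1 was lost in 13 of the 32 alternatives. Among 13 T and NK cell markers 1 was lower, the T cell receptor constant region gene Trbc1, which fell by 1.48 (SE 0.22, adjusted p = 0.000164). It had 0 reads in the 3 MPP tamoxifen libraries and 2 to 3 in each MPP oil library, 4 to 8 in each LT tamoxifen library and 35 to 55 in each LT oil library. Of 11 mast cell and basophil markers 2 were lower, Kit and the protease gene Cpa3 (-1.04, SE 0.18, adjusted p = 0.000926). The 11 markers summed to 733 to 769 in MPP tamoxifen, against 911 to 1020 in MPP oil. The sums were 895 to 1020 in LT tamoxifen, against 1290 to 1390 in LT oil, and 816 to 822 in ST tamoxifen, against 842 to 946 in ST oil. Most of each sum was Kit, at 532 to 782 with tamoxifen and 559 to 1150 with oil, which also marks the sorted stem and progenitor cells. The median of the list was 0.11, with 7 of 11 above 0. The defining genes Mcpt8, Fcer1a and Ms4a2 did not pass, at 0.11, 0.57 and 0.21. Whether a change in such cells plays a part in the erythroid and lymphoid results was not tested.

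The direction of the effect was then read in libraries that had no part in choosing the genes. Fitted on LT and ST cells alone, 805 genes passed, and 674 of them (83.7%) had the same direction in MPPs, against 58.8% of all genes. In 22.2% the MPP libraries did not overlap and lay in that direction, against 9.99% of all genes. All genes were not matched to the called genes for their number of reads. The sizes were smaller in MPPs: the median fold change of the higher genes was 0.54 in the fit and 0.13 in MPPs, and of the lower genes -0.71 and -0.23. Fitted on MPPs and ST cells, 559 genes passed, with 81.2% of the same direction in LT cells, against 59.4% of all genes. There was no overlap in 37.4%, against 13.6%. The median of the higher genes was 0.49 in the fit and 0.25 in LT cells, and of the lower genes -0.65 and -0.30. Fitted on MPPs and LT cells, 45 genes passed, and 43 (95.6%) had the same direction in ST cells, against 60.1% of all genes. The libraries did not overlap in 30 of the 45 (66.7%), against 19.5% of all genes. The median of the higher genes was 0.73 in the fit and 0.78 in ST cells, and of the lower genes -0.66 and -0.67. The 2 exceptions, named after their values were seen, were Ube2h, a ubiquitin-conjugating enzyme gene, with -0.63 in the fit on MPPs and LT cells and 0.13 in ST cells, and Nme2, a nucleoside diphosphate kinase gene, with 0.73 and -0.26. LT and ST libraries may share animals, so a reading in one of them is not independent of genes chosen with the other.

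**Figure D4:**
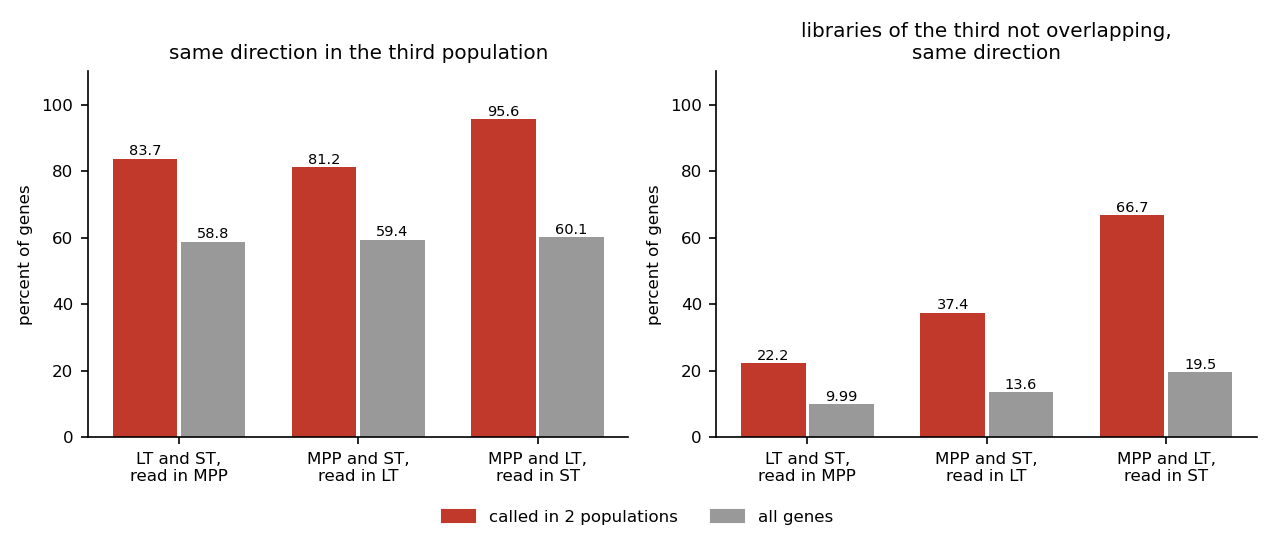
Percent of genes (y axis) that have, in the population not used to choose them, the same direction of effect (left) or tamoxifen and oil libraries that do not overlap in that direction (right), with genes called in the other 2 populations in red left of all genes in grey. The called genes lie above all genes in each pair, from 81.2% against 59.4% to 95.6% against 60.1% at the left.

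The fold changes of all genes with a mean value of at least 5 were only weakly related between populations. Across these 10960 genes Pearson's r was 0.198 between MPPs and LT cells, 0.293 between MPPs and ST cells and 0.286 between LT and ST cells, given as a description since genes are not independent replicates.

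**Figure D5:**
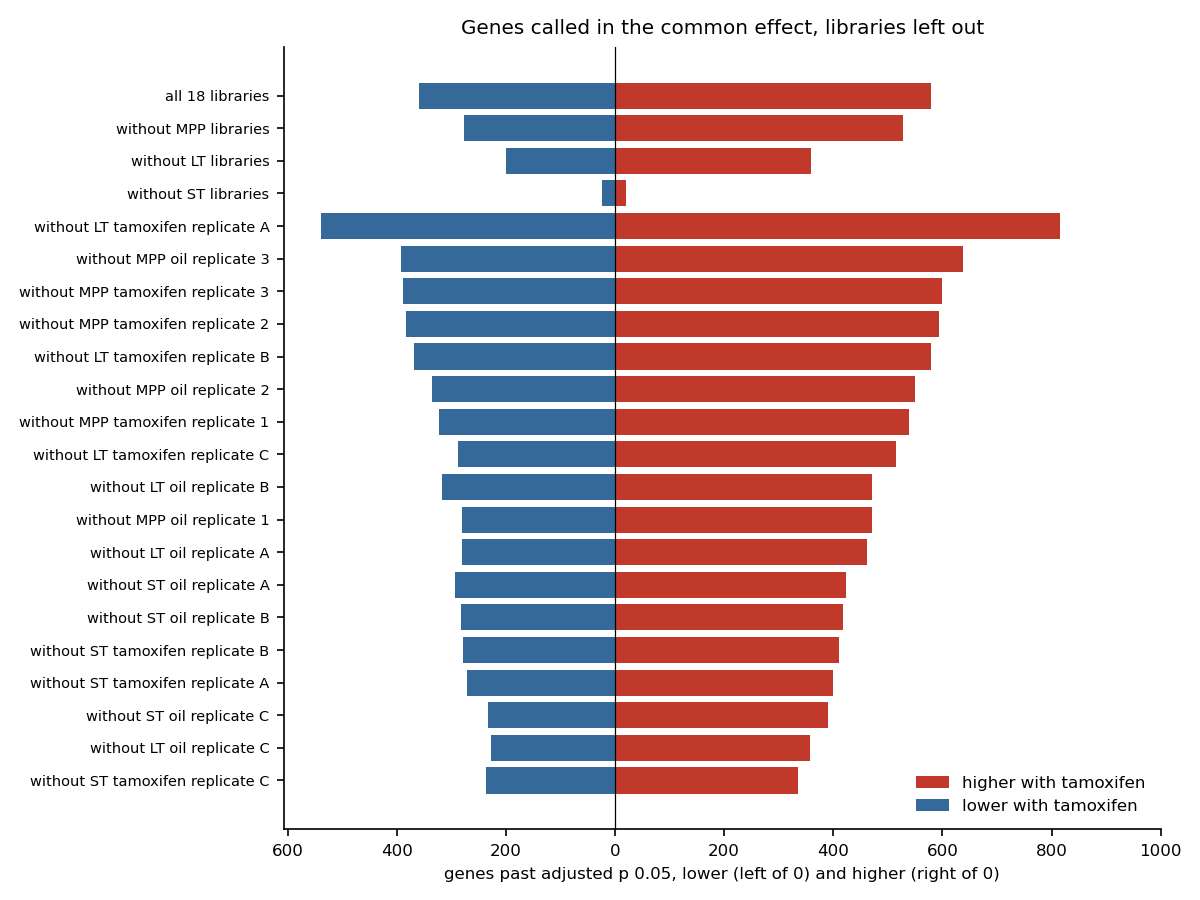
Number of genes past an adjusted p of 0.05 in the common effect (x axis, higher with tamoxifen to the right of 0 and lower to the left) with all 18 libraries, without each population and without each library (y axis). The count was 45 without the ST libraries, against 939 with all libraries, and ran from 571 to 1354 when a single library was left out.

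Which libraries carried the common effect was examined by leaving some out. Without the MPP libraries 805 genes passed, without the LT libraries 559 and without the ST libraries 45. Leaving out 1 library at a time gave 571 genes without ST tamoxifen library C, 585 without LT oil library C and 623 without ST oil library C, and 1354 without LT tamoxifen library A. Of the 113 named genes that passed, 92 kept the call under each single library left out, 89 lost it without the ST libraries, and 0 changed sign under any of the 32 alternatives. That 0 does not cover the named genes that did not pass.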

How the data were processed

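RNA was sorted-cell RNA, amplified to cDNA and sequenced, per the labels' protocols. Picard, cutadapt, RSEM 1.17, limma and the build NCBIM37 are named in the submitters' processing notes; aligner, annotation, strand and scaling were not given in the sources used here. What the authors deposited is a signal, that is normalised values and not counts, for 14419 genes. Each value was the sum of a whole read number and 0.5, multiplied by a constant per library (100% of values, tolerance 0.001 reads), so reads were recovered; each library held 2728800 to 5279821, which limits genes with few reads by counting error.

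Genes were tested with limma 3.58.1 (R 4.3.3, trend and robust) on log2(value + 1), with population as a block, 14 residual degrees of freedom and Benjamini-Hochberg adjustment at 0.05. The difference of effects was an F test of 2 interaction terms with 12 residual degrees of freedom. edgeR 4.0.16 and DESeq2 1.42.0 were run on recovered reads as alternatives. The model was tested on simulated data. Named genes were the 12 higher and 12 lower with the largest change among those called, above the median level and without overlap in any population, a few estrogen receptor genes and Pdgfrb, and the 3 smallest p in each list; others are said to be chosen after their values were seen. Members and lists were chosen with earlier results of these data known. Of the gene IDs, 120 had no symbol and 116 shared one. Nothing says that libraries came from separate animals beyond the design text, so p-values measure the spread between these libraries. Genes that share reads with near-identical copies or overlap on the other strand are uncertain.
Some results are not reported here.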

Additional observations from a re-analysis of the deposited data

How the results depend on the processing

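Against 939 genes (580 higher, 359 lower), the common effect had 538 genes with neither trend nor robust fitting (293 higher), 559 without the LT libraries (360 higher, 199 lower) and 45 without the ST libraries (21 higher, 24 lower). Leaving out 1 library at a time gave 571 to 1354 genes, 335 to 815 higher and 228 to 539 lower. Other alternatives gave 729 to 1289 genes, with 908 by edgeR and 1289 by DESeq2. The test of a difference between populations called 0 genes in limma and in edgeR, 11 with a pseudocount of 0.5, 102 with library weights, 12 after quantile normalisation, 166 with DESeq2, 19 with LT and ST libraries of 1 letter as 1 animal, 2 without MPP, 36 without LT and 2 without ST libraries, and 0 to 187 with 1 library left out. The causes were not tested. With the replicate number as a block, 729 genes passed (441 higher, 288 lower, 693 of them among the 939) and 16 differed between populations. The numbers were not taken as a pairing: tamoxifen and oil libraries of the same number had correlations of their deviations from -0.061 to 0.201. LT and ST libraries of the same treatment and letter had 0.078 to 0.146, and treating them as 1 animal gave 734 genes (446 higher, 288 lower). Depth limits genes with few reads, such as Greb1 and Trbc1.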
